A study of Homo sapiens with 6 samples.

Results

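Telomerase and shelterin transcripts were followed in HUDEP-2, a human erythroid progenitor line made immortal in culture, after knockdown of MEN1, which encodes menin. The set is 10 genes chosen by name, of 62754 genes in each deposited table, and each name matched 1 row. They are TERT, the reverse transcriptase of telomerase, DKC1, NHP2 and NOP10, which encode proteins of its RNA-protein core, and the 6 shelterin genes TERF1, TERF2, TERF2IP, TINF2, POT1 and ACD. All 10 passed the filter on low values, which kept 14294 genes with at least 1 TPM in at least 3 of the 6 libraries. TPM is a length-scaled transcript level that sums to 1000000 in each library.

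Of the 6 libraries, 3 came from cells given a lentiviral shRNA against MEN1 (hairpin MEN1sh2, genotype label MEN1 knockdown), called knockdown below, and 3 from cells given a non-targeting control shRNA (Controlsh, genotype label WT). All cells grew in StemSpan SFEM with erythropoietin (3 units per ml), stem cell factor (50 ng per ml), dexamethasone (1e-06 M) and doxycycline (1 µg per ml). All were selected with puromycin (2 µg per ml) for 48 h starting 24 h after infection, and the series design gives a time of 72 h after transduction. Only 1 hairpin against MEN1 was used, so loss of menin and other effects of that hairpin cannot be told apart. The labels call the replicates biological without saying what separates them, so p-values measure the spread between these libraries.

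Telomerase extends chromosome ends by copying an RNA template, TERC, with the protein subunit TERT. The template carries an H/ACA motif bound by dyskerin (DKC1), NHP2, NOP10 and GAR1, the same proteins that sit on the H/ACA small nucleolar RNAs that guide pseudouridylation. Shelterin coats the telomere repeats: TERF1 and TERF2 bind the double-stranded part, POT1 binds the single-stranded overhang, ACD (TPP1) carries POT1 and recruits telomerase, TINF2 (TIN2) bridges the subunits, and TERF2IP (RAP1) binds TERF2. TERT is shut off in most somatic cells and kept on in many stem, progenitor and immortal cells, and menin has been described as one of its regulators.

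The targeted gene checks the labels. MEN1 was at 6.29, 6.44 and 6.88 TPM in the knockdown libraries and at 41.2, 39.6 and 37.1 TPM in the control libraries, so 16.6% of the control level remained (log2 change -2.42 with adjusted p 8.5e-06 in limma). Library depth, inferred from the ratio of coverage to FPKM, was 5565000000 to 10811000000 aligned bases. Correlations of log2(TPM + 1) across the genes tested, which are not independent replicates, were 0.985 to 0.989 within groups and 0.934 to 0.954 between them. The line carried its erythroid markers in every library. The summed TPM of the 9 erythroid markers was 95800 to 107800 under knockdown and 55350 to 61390 in the controls. HBB, HBA1 and HBA2 held most of this sum. All of the 9 rose except GATA1 (288.9 against 277.2 TPM, adjusted p 0.327 in limma) and KLF1 (533 against 553 TPM, adjusted p 0.508), which did not pass the threshold. Of 27 markers of other cell types, 18 stayed under 1 TPM in every library, and PF4, PPBP and MS4A1 were listed at 0 throughout. The summed markers were 16.6 to 21.1 against 31.6 to 36.4 TPM for megakaryocytes or platelets, where ITGA2B held most of the sum. They were 3.97 to 5.93 against 0.874 to 1.27 TPM for lymphocytes, where CD3D averaged 4.40 and 0.397 TPM. They were 17.7 to 23.95 against 12.3 to 14.6 TPM for monocytes or macrophages, where CD68 held most (20.4 against 11.6 TPM on average). The markers of that list went both ways: LYZ averaged 0.198 against 1.48 TPM. CD14 and CSF1R were lower on average and FCGR3A higher, all under 1 TPM. The sums were 0.271 to 0.719 against 1.496 to 3.06 TPM for granulocytes. For fibroblasts or epithelium they were 124.8 to 143.9 against 235.1 to 250.2 TPM, where EPCAM held most. These marker sums moved with the groups, and their part in the results below was not tested. In bulk RNA, fewer cells of a type and less RNA per cell cannot be told apart.

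Of the 10 genes, 5 fell and 1 rose under knockdown at an adjusted p under 0.05 in limma. Over all 14294 genes tested, 31.5% fell and 22.1% rose, 53.6% in all, so the 6 of 10 called lie near the background share. The balance of directions depends on scaling: with median-of-ratios scaling 3838 genes fell and 3758 rose, and with quantile normalization 3863 fell and 3731 rose, in place of 4499 and 3158. TERT fell most among the 10, and DKC1, NHP2, TERF1 and ACD fell by less than 2-fold in TPM. POT1 was the member that rose. The median log2 fold change of the 10 was -0.43 and that of all genes tested was -0.07. All 3 knockdown libraries lay below all 3 controls in 6 members and above them in 1, against 35.9% and 25.8% of all genes tested, 61.8% in all. No single gene can reach an exact permutation p below 0.1 with 3 libraries against 3. Values are given as TPM, which is scaled for transcript length, and log2 fold changes are on the log2(TPM + 1) scale, knockdown minus control, which understates the change of a gene at low TPM.

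**Figure D1:**
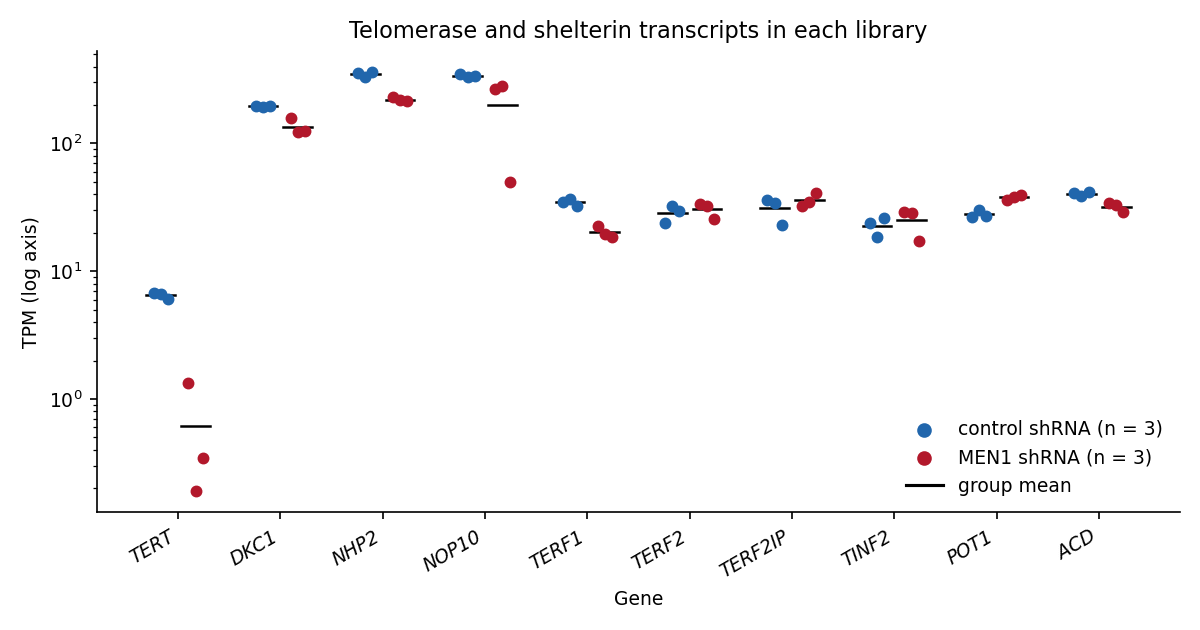
TPM of each of the 10 genes in each of the 6 libraries on a log axis, with points for libraries (3 per group) and black lines for group means. The TERT points of the MEN1 shRNA libraries, at 0.189 to 1.32 TPM, lie below all control points, and 1 NOP10 point at 49.9 TPM lies far below the other MEN1 shRNA libraries.

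TERT (ENSG00000164362, chromosome 5, 1253147 to 1295068, minus strand, hg38) encodes the catalytic subunit. Its TPM was 1.32, 0.189 and 0.344 in knockdown replicates 1, 2 and 3, against 6.79, 6.63 and 6.03 for the controls in the same order. The groups did not overlap, the controls lay close together, and among the knockdown libraries replicate 1 was the highest. Means were 0.618 ± 0.615 and 6.49 ± 0.399 TPM (SD, n = 3 each), a control level 10.5 times the knockdown level. Without knockdown replicate 1 the control level was 24.4 times that of the other knockdown libraries, and leaving out any other library gave 7.79 to 10.9 times. Its log2 change stood at -2.27 (SE 0.249, adjusted p 0.000235 in limma), and it was -3.54 with a pseudocount of 0.1 in place of 1. It was -2.57 without knockdown replicate 1.

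Few reads stand behind the low TERT values. Mean coverage of the gene was 1.31, 0.564 and 0.542 reads per base in knockdown replicates 1, 2 and 3 and 10.7, 16.7 and 10.6 in the controls. Per 1000000000 aligned bases of the library, coverage was 0.177, 0.0708 and 0.0975 under knockdown and 1.32, 1.55 and 1.52 in the controls. On this scale 7.87% of the control level remained, against 9.53% in TPM. The ratio of scaled coverage to FPKM varied for TERT and was 0.286, 0.798 and 0.611 in the knockdown libraries and 0.418, 0.516 and 0.554 in the controls. For MEN1 the same ratio ran from 0.560 to 0.570. The part of this variation in the TERT difference was not tested beyond the value from coverage. An unnamed row on the opposite strand that overlaps the end of TERT (ENSG00000287486) reached at most 0.321 TPM.

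The bases upstream of the RefSeq start (GRCh38.p14) are shown for TERT and the other telomerase protein genes, which were lower in every knockdown library, and for POT1, which was higher in every one. Each run is the 250 bases before the start, 5′ to 3′ on the strand of the gene. The RefSeq start can differ from the end of the row used for expression. The DKC1, NHP2, NOP10 and POT1 windows lie partly inside the rows of these genes, with some of the matches, and the TERT window lies outside its row. Capitals mark the E-box CACGTG, the site class bound by MYC and MAX, and the GC box GGGCGG, the site class bound by SP1, on either strand.
TERT promoter (chr5:1295069-1295318, minus strand): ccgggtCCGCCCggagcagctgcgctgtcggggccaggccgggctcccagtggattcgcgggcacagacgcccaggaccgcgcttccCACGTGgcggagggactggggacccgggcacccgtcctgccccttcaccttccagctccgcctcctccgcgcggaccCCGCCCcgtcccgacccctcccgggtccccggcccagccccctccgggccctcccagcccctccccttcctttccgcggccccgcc
DKC1 promoter (chrX:154762614-154762863, plus strand): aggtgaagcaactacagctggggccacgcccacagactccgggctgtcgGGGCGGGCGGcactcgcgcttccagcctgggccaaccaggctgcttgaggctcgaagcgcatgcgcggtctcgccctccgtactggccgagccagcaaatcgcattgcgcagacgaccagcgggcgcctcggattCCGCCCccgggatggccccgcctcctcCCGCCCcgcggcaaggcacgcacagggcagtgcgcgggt
NHP2 promoter (chr5:178153886-178154135, minus strand): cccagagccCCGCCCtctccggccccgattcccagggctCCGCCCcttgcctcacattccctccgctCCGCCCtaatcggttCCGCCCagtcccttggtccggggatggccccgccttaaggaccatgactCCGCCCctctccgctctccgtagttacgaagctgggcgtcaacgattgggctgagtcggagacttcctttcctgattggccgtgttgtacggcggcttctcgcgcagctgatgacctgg
NOP10 promoter (chr15:34343137-34343386, minus strand): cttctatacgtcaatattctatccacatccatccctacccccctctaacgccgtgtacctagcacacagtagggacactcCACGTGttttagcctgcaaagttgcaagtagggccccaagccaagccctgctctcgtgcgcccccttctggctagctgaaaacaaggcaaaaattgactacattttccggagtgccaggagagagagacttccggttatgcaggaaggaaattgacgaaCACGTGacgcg
POT1 promoter (chr7:124929826-124930075, minus strand): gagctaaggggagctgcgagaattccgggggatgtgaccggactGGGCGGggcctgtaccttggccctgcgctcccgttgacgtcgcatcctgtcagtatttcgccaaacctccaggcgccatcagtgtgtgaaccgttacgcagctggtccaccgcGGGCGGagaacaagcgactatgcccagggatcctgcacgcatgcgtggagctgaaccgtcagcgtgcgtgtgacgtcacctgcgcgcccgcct

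The TERT window held 1 E-box, beginning 163 bases before the start, and 2 GC boxes, and 78.8% of its bases were G or C against a median of 58% over all promoters. NOP10 held 2 E-boxes, 170 and 11 bases before the start, and no GC box. DKC1 held 4 GC boxes, of which 2 overlap, NHP2 held 5 and POT1 held 2, and none of these 3 held the E-box. Over 35116 promoter windows of the same length, 6.34% held CACGTG and 42.6% held GGGCGG. RefSeq promoters matched 8 of the 10 genes, and TERF1 and TERF2 had none. The other 3 matched genes, ACD, TERF2IP and TINF2, held the GC box and no E-box. The ACD window lies wholly inside the row of that gene. A match is a string of letters in this window and not a measured binding site.

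The transcripts for the proteins that bind the telomerase RNA were the most abundant members, and DKC1 and NHP2 fell under knockdown while NOP10 did not pass the threshold. DKC1 (ENSG00000130826, chromosome X, 154762742 to 154777689), the pseudouridine synthase, was at 158, 123 and 124 TPM in knockdown replicates 1, 2 and 3 and at 197.5, 191.8 and 194.9 in the controls. Every knockdown library lay below every control, with replicate 1 the nearest to them. DKC1 fell to 69.5% of the control level (log2 change -0.53 with SE 0.0979 and adjusted p 0.00275 in limma). NHP2 (ENSG00000145912, chromosome 5, 178149463 to 178153894) was at 229, 218 and 214 TPM against 354, 333 and 364. It fell to 63.0% (log2 change -0.66 with SE 0.0573 and adjusted p 8.9e-05), with little spread inside either group. Its row overlaps RMND5B on the opposite strand over 1106 bases, at 26.5 against 26.2 TPM on average.

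NOP10 (ENSG00000182117, chromosome 15, 34339159 to 34343180), the smallest of these proteins, was at 267 and 282 TPM in knockdown replicates 1 and 2 and at 49.9 TPM in replicate 3, against 351, 330 and 339 in the controls. Replicate 3 of the knockdown thus lay farther from replicates 1 and 2 than those lay from the controls. Over all libraries limma gave a log2 change of -1.12 (SE 0.594, adjusted p 0.152), which did not pass the threshold. Without knockdown replicate 3 it was -0.31 and passed (adjusted p 0.00744). Coverage showed the same gap, at 40.8, 43.2 and 7.68 per 1000000000 aligned bases in knockdown replicates 1, 2 and 3 and 48.5 to 52.9 in the controls. The ratio of scaled coverage to FPKM for NOP10 was 0.325 to 0.331 in all 6 libraries, and no other row overlaps it. By a screen added after these values were seen, of 2699 genes above 50 TPM in at least 5 libraries, 4 lay over 1.5 log2 units from the other libraries of the group, themselves within 0.5 of each other, in knockdown replicate 3, namely GPX1, MTCO1P12, NOP10 and PPP1R15A, and 1 to 3 did in each other library.

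Transcript levels of the core protein genes relative to one another were compared within libraries, where the library scaling cancels. DKC1 over NHP2 was 0.691, 0.566 and 0.581 under knockdown and 0.558, 0.576 and 0.535 in the controls, and the groups overlapped. NOP10 over NHP2 was 1.17 and 1.29 in knockdown replicates 1 and 2 and 0.233 in replicate 3, against 0.992, 0.991 and 0.930 in the controls. GAR1, the remaining protein of the H/ACA complex, fell to 98.9 ± 6.97 TPM from 172.8 ± 2.75 TPM (SD, n = 3 each, log2 fold change -0.80, adjusted p 6.8e-05 in limma). GAR1 over NHP2 was lower in every knockdown library (0.466, 0.430 and 0.448) than in every control (0.492, 0.510 and 0.480). The ratio of DKC1 to TERT went from 29.1, 28.9 and 32.3 in the controls to 120, 653.5 and 362 under knockdown, and every knockdown library lay above every control.

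**Figure D2:**
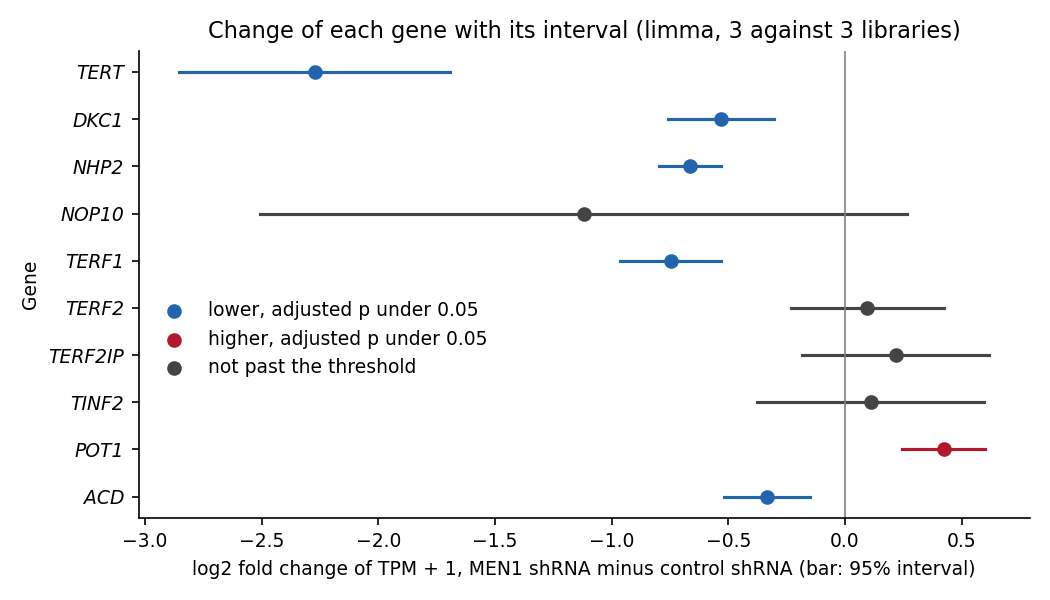
Log2 fold change of TPM + 1 for each of the 10 genes, MEN1 shRNA minus control shRNA, with 95% intervals from limma (3 libraries per group). TERT lies at -2.27, POT1 alone lies above 0 with its whole interval, and the NOP10 interval runs from -2.51 to 0.27.

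Among the shelterin genes, the repeat-binding TERF1 and the bridge to telomerase ACD fell, the overhang-binding POT1 rose, and TERF2, TERF2IP and TINF2 did not pass the threshold. TERF1 (ENSG00000147601, chromosome 8, 73008856 to 73048123) was at 22.6, 19.7 and 18.7 TPM under knockdown and at 34.7, 37.0 and 32.5 TPM in the controls. The groups were well apart, and TERF1 fell to 58.5% of the control level (log2 change -0.75 with SE 0.0925 and adjusted p 0.00040 in limma). Its 7 pseudogene rows reached at most 0.683 TPM in any library.

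POT1 (ENSG00000128513, chromosome 7, 124822386 to 124929983) was at 36.0, 38.2 and 39.5 TPM under knockdown and at 26.7, 30.3 and 27.2 TPM in the controls. It rose to 1.35 times the control level (log2 change 0.42 with SE 0.0760 and adjusted p 0.00242 in limma) with no overlap between groups. ACD (ENSG00000102977, chromosome 16, 67657512 to 67660810), the partner of POT1, was at 34.2, 32.9 and 29.0 TPM against 41.2, 39.1 and 41.3. It fell to 79.0% (log2 change -0.33 with SE 0.0786 and adjusted p 0.00857). POT1 over ACD was therefore 1.05, 1.16 and 1.36 in the knockdown libraries and 0.649, 0.774 and 0.658 in the controls, with POT1 the higher of the pair in each knockdown library and ACD in each control. The ACD row shares 58 bases with CARMIL2 on the opposite strand, which averaged 1.74 against 5.33 TPM.

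TERF2 (ENSG00000132604, chromosome 16, 69355567 to 69408571), which shields chromosome ends from the damage response, was at 33.6, 32.4 and 25.4 TPM under knockdown and at 23.9, 32.2 and 29.4 TPM in the controls. The groups overlapped, and the 95% interval of the log2 fold change ran from -0.23 to 0.42 (estimate 0.10, adjusted p 0.593 in limma). CYB5B overlaps TERF2 on the opposite strand over 10170 bases and averaged 30.4 against 41.4 TPM. TERF1 over TERF2, the pair of double-strand binders, was 0.672, 0.607 and 0.734 under knockdown and 1.45, 1.15 and 1.11 in the controls. TERF1 was thus above TERF2 in each control library and below it in each knockdown library.

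TERF2IP (ENSG00000166848, chromosome 16, 75647773 to 75761872) was at 32.2, 34.9 and 40.7 TPM against 36.4, 34.1 and 23.0, with control replicate 3 the lowest. Its log2 fold change was 0.22 (interval -0.18 to 0.62, adjusted p 0.320 in limma). The ratio of scaled coverage to FPKM for TERF2IP was 0.0582, 0.0602 and 0.0543 under knockdown and 0.0693, 0.0696 and 0.0697 in the controls, without overlap. Scaled coverage under knockdown was 97.2% of the control level, against 115.2% in TPM. The cause of this difference was not tested. The TERF2IP row overlaps KARS1 on the opposite strand over 871 bases, and KARS1 was at 198.1 against 328.2 TPM on average. TINF2 (ENSG00000092330, chromosome 14, 24238286 to 24242663) was at 29.0, 28.7 and 17.3 TPM against 23.7, 18.6 and 25.9, and the groups overlapped with a log2 fold change of 0.11 (interval -0.38 to 0.60, adjusted p 0.688). It overlaps GMPR2 on the opposite strand over 957 bases. Library preparation kept strand, but the labels do not say whether quantification used it. These intervals allow changes of either sign for TERF2, TERF2IP and TINF2, and estimates of each crossed 0 under some alternative (from -0.02 to 0.22, from -0.06 to 0.34 and from -0.02 to 0.35).

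The summed level of the 6 shelterin genes overlapped between the groups while the shares of 3 of them did not. The sum was 187.6, 186.8 and 170.6 TPM under knockdown and 186.5, 191.3 and 179.3 TPM in the controls. The share of TERF1 in this sum was 12.0%, 10.5% and 10.9% under knockdown and 18.6%, 19.4% and 18.1% in the controls. POT1 held 19.2%, 20.4% and 23.2% against 14.3%, 15.8% and 15.2%. ACD held 18.2%, 17.6% and 17.003% against 22.1%, 20.4% and 23.1%. For these 3 genes the groups did not overlap, and for the other 3 they did. Shares sum to the whole, so a fall in some raises the others, and no test was made on them.

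**Figure D3:**
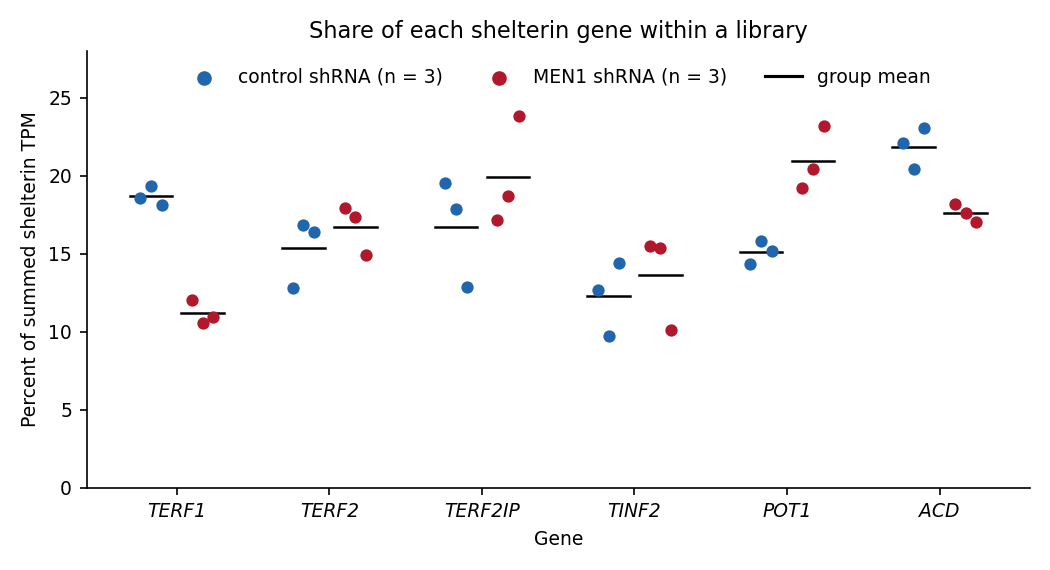
Percent of the summed TPM of the 6 shelterin genes held by each gene in each library, with points for libraries (3 per group) and black lines for group means. TERF1 and ACD lie lower and POT1 higher in the MEN1 shRNA libraries, and the points of TERF2, TERF2IP and TINF2 overlap between groups.

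The order of levels differed between the groups. In the controls it ran from NHP2 (350.2 TPM) through NOP10 (340), DKC1 (195), ACD (40.5), TERF1 (34.7), TERF2IP (31.2), TERF2 (28.5), POT1 (28.1) and TINF2 (22.7) to TERT (6.49). Ranges overlapped between NHP2 and NOP10 and between neighbours from TERF1 to POT1, so these were not ordered beyond their spread. With the knockdown, POT1 was at the top of the shelterin genes (37.9 TPM) and TERF1 at the bottom (20.3 TPM), and ranges overlapped between all shelterin neighbours. TERT stayed the lowest of the 10 in all 6 libraries.

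Other telomerase factors were taken from lists written with earlier results of these data known, so their counts are descriptions. Of 21 genes for telomerase assembly and trafficking, 20 were tested, 13 fell, 1 rose and 6 did not pass the threshold, beside 31.5% lower and 22.1% higher over all genes tested. The list had a median log2 fold change of -0.55. PES1, a ribosome assembly factor, fell to 153.5 TPM from 271.8 TPM (log2 change -0.82 with adjusted p 3.7e-05 in limma). SHQ1, the chaperone that holds dyskerin before assembly, fell to 13.1 ± 0.522 TPM from 28.6 ± 1.41 TPM (SD, n = 3 each, log2 fold change -1.06, adjusted p 4.6e-05). PINX1, a telomerase inhibitor, fell to 28.9 TPM from 63.6 TPM (log2 change -1.12 with adjusted p 6.8e-05). NAF1, which loads the H/ACA proteins before GAR1 takes its place, fell to 28.2 TPM from 37.5 TPM (log2 change -0.40 with adjusted p 0.00122).

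WRAP53, which brings telomerase to Cajal bodies, was at 25.2, 21.7 and 21.9 TPM against 24.6, 21.7 and 22.8, and its log2 fold change of -0.01 had an interval of -0.21 to 0.20 (adjusted p 0.951 in limma). TEP1, a telomerase-associated protein, was the riser of the list (log2 change 0.58 with adjusted p 0.0035), a gene named after its values were seen. TERC, the template RNA, was listed at 0 in all 6 poly(A)-selected libraries, so nothing is known here of the RNA subunit.

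The H/ACA proteins also serve small nucleolar RNAs, and the core protein genes of both snoRNA classes form a list of 8. Of these, which include DKC1, NHP2 and NOP10, 7 fell, 0 rose and NOP10 did not pass (31.5% of all genes tested fell), and all 8 had every knockdown library below every control (35.9% of all genes tested did). The median log2 fold change was -0.66. FBL, the methyltransferase of the C/D class, fell to 696.8 ± 62.6 TPM from 1257 ± 27.5 TPM (SD, n = 3 each, log2 fold change -0.85, adjusted p 8.2e-05 in limma). SNU13, which binds the C/D RNA fold, fell to 131.4 TPM from 201.5 TPM (log2 change -0.62 with adjusted p 0.000224).

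In the CST and C-strand fill-in list, which pairs the CST complex with DNA polymerase alpha and primase, 3 of 7 genes fell and 0 rose, with a median log2 fold change of -0.11. Over all genes tested 31.5% fell and 53.6% were called, so this count lies near the background. POLA1, the polymerase subunit, had a log2 fold change of -0.47 (adjusted p 0.00453 in limma), and those of STN1 (-0.44, adjusted p 0.0299) and PRIM2 (-0.19, adjusted p 0.0471) were nearer the threshold. Only 1 of the 7 passed without knockdown replicate 2, without knockdown replicate 3, without control replicate 1 and without control replicate 2 in turn. CTC1 did not pass (log2 change -0.11 with adjusted p 0.379). TEN1 varied widely within both groups, at 1.18, 31.2 and 28.9 TPM under knockdown and 21.2, 7.29 and 2.31 TPM in the controls.

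Of 35 telomere-associated maintenance genes, 31 were tested, 5 rose, 8 fell and 18 did not pass, near the 22.1% higher and 31.5% lower over all genes tested, with a median log2 fold change of -0.07, as over all genes tested. The Ku heterodimer split: XRCC5 rose to 573.9 ± 18.5 TPM from 421.5 ± 20.7 TPM (log2 change 0.44 with adjusted p 0.000503 in limma) and XRCC6 fell to 404.4 ± 7.44 TPM from 553.4 ± 11.3 TPM (log2 change -0.45 with adjusted p 0.00021; SD, n = 3 each). XRCC6 was above XRCC5 in every control library and below it in every knockdown library. FEN1, a flap nuclease of replication, rose to 219.8 TPM from 145.5 TPM (log2 change 0.59 with adjusted p 9.3e-05). ATR, the kinase that senses exposed single strands, fell to 9.84 TPM from 18.5 TPM (log2 change -0.85 with adjusted p 0.000444). Without control replicate 2, 8 genes of this list passed in place of 13.

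**Figure D4:**
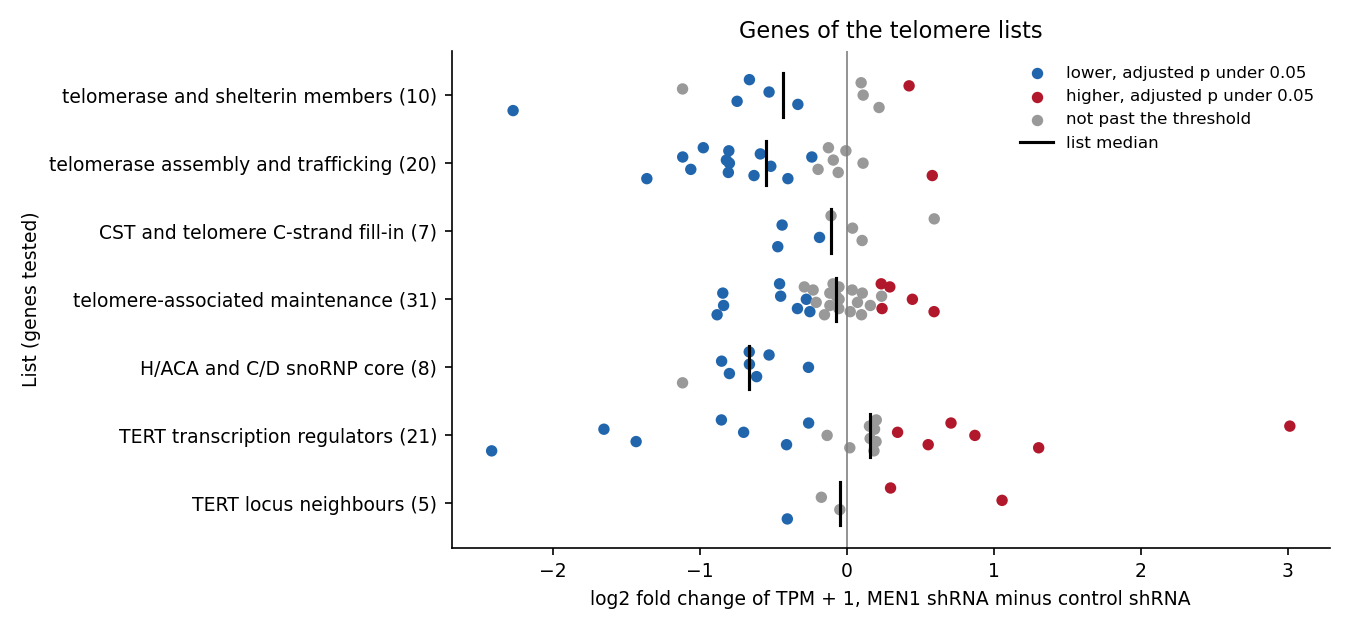
Log2 fold change of TPM + 1, MEN1 shRNA minus control shRNA, for every tested gene of the 10 members and of 6 other lists, with points coloured by the limma call and black lines at list medians. The snoRNP core and telomerase assembly lists lie to the left of 0 (medians -0.66 and -0.55), and the maintenance list is centred near 0 (-0.07).

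Of 23 listed regulators of TERT transcription 21 were tested, 6 rose and 7 fell, MEN1 itself among the 7. These 13 of 21 lie near the 53.6% called over all genes tested (22.1% higher and 31.5% lower). MYC, an activator through the E-box, was at 91.9, 63.7 and 66.8 TPM in knockdown replicates 1, 2 and 3 and at 227, 240 and 231 TPM in the controls (log2 change -1.65 with SE 0.130 and adjusted p 6.4e-05 in limma). As for TERT, replicate 1 was the highest of the knockdown libraries. The same held for other genes that fell, among them DKC1, WT1 and FBL, but not for MEN1, which was lowest there (6.29 TPM). A link between MYC and TERT was not tested. ETS2 fell to 20.3 TPM from 37.5 TPM (log2 change -0.85 with adjusted p 0.000106), and E2F1, a cell cycle factor, rose to 59.9 TPM from 32.4 TPM (log2 change 0.87 with adjusted p 9.5e-05).

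The neighbours of TERT differed among themselves. CLPTM1L was at 69.0, 77.3 and 65.1 TPM against 68.7, 76.9 and 72.9, with a log2 fold change of -0.05 (interval -0.24 to 0.14, adjusted p 0.638 in limma). SLC6A18 was listed at 0 in all 6 libraries. Of 9 listed genes of the region 5 were tested. SLC6A19, an amino acid transporter, rose to 41.6 TPM from 19.5 TPM (log2 change 1.06 with adjusted p 5.2e-05). SLC12A7 rose (0.30, adjusted p 0.0094) and TRIP13 fell (-0.41, adjusted p 0.00411), while BRD9 did not pass the threshold (-0.17, adjusted p 0.0702). These 3 of 5 called lie near the 53.6% called over all genes tested (22.1% higher and 31.5% lower).

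The patterns most like TERT over the 6 libraries, among 10296 named genes with a mean of 5 TPM or more in a group, were those of SKA3 (Pearson r 0.9999), a kinetochore protein, CASP6 (0.9995), a caspase, and TMEM123 (0.9995). SKA3 was at 31.6, 25.7 and 26.7 TPM under knockdown and at 46.6, 45.9 and 45.2 TPM in the controls, a log2 fold change of -0.70 against -2.27 for TERT. These correlations run over 2 groups of 3 libraries and are a description: they share the difference between groups and the higher level of knockdown replicate 1.

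**Figure D5:**
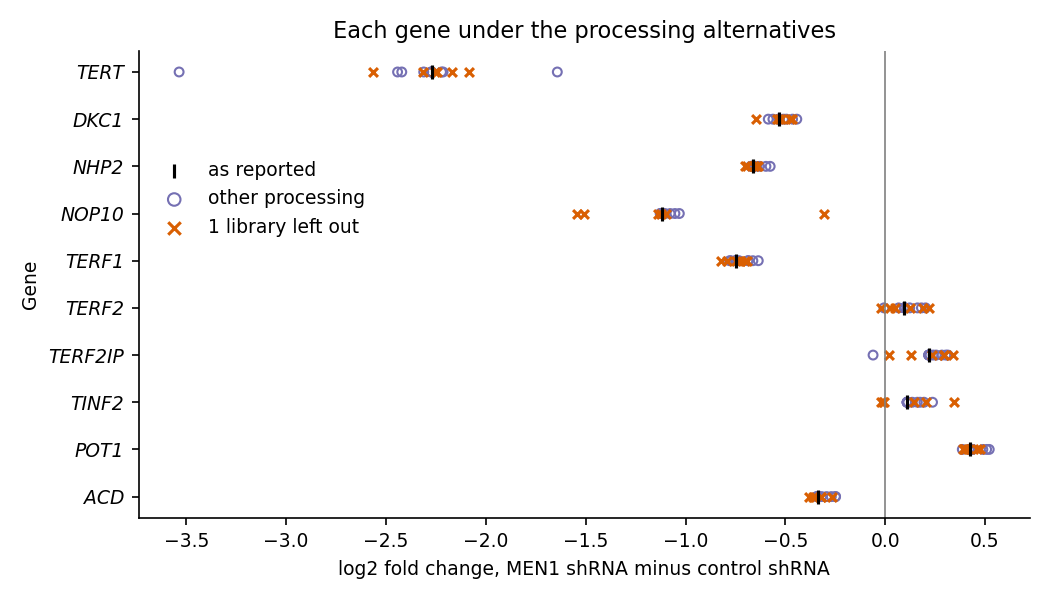
Log2 fold change of each of the 10 genes, MEN1 shRNA minus control shRNA, as reported (black bars), with other processing (open circles) and with 1 library left out (crosses). TERT stays between -3.54 and -1.64, NOP10 moves to -0.31 without MEN1 shRNA replicate 3, and TERF2, TERF2IP and TINF2 have estimates on both sides of 0.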

How the data were processed

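Poly(A)-selected RNA was sequenced from 6 HUDEP-2 libraries, 3 per group. The submitters' processing notes list FastQC, Trimmomatic, STAR 2.7.1a, Picard 2.20.4, StringTie 2.0.4 and hg38, while the annotation and settings used are unstated. Per the file headers, the authors deposited TPM, FPKM and coverage signal per gene. TPM sums to 1000000 per library, and abundant transcripts therefore weigh on all others. In 2 genes of control replicate 2 a deposited residue below 0 was set to 0.

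Genes with at least 1 TPM in 3 or more libraries were fitted as log2(TPM + 1) with limma 3.58.1 (R 4.3.3, trended eBayes, all 6 libraries) and p-values were adjusted by Benjamini-Hochberg across the 14294 genes. The tables used here hold no counts, so no count test was run, and the fit was tested on simulated data. There, 98%, 84%, 40% and 44% of genes changed by log2 -2, -1, -0.5 and 0.5 were recovered, with 50 genes for each. False calls were 5.67% of calls. Far fewer genes were changed in the simulation than were called in the data. Aligned bases were taken as the most frequent ratio of coverage to FPKM, which at least 2655 genes per library shared within 0.1%. PINX1 had 2 rows, and the more abundant was used. Promoters came from RefSeq. Tables and figures used Python 3.11.15, pandas 2.3.3, NumPy 2.4.6 and matplotlib 3.10.9.

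Members and lists were chosen with earlier results of these data known. Named are the members, MEN1, the 4 lowest adjusted p-values past the threshold per list, preset telomerase, CST and neighbouring genes, rows overlapping members, and the 3 patterns closest to TERT. Genes outside this are said to be so.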

Additional observations from a re-analysis of the deposited data

How the results depend on the processing

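Of 187 comparisons of MEN1 and the 10 genes with an alternative, 180 kept direction and side of the threshold. Coverage in place of TPM was added after seeing the data. NOP10 passed without MEN1 shRNA replicate 3 (log2 fold change -0.31, adjusted p 0.00744, range over alternatives 0.00744 to 0.364). Estimates never past the threshold changed sign for TERF2 without control replicate 1 (-0.021) and with coverage (-0.0065), for TERF2IP with coverage (-0.061), and for TINF2 without MEN1 shRNA replicates 1 (-0.012) and 2 (-0.0044) and control replicate 2 (-0.022). The cause was not tested. TERT ran from -2.57 to -2.08 with 1 library left out and was -3.54 at a pseudocount of 0.1 and -1.64 with FPKM, which change the weight of low values by construction. The other changes with 1 library left out ran from -1.54 to -0.31 for NOP10, -0.021 to 0.22 for TERF2, 0.021 to 0.34 for TERF2IP (lowest without control replicate 3) and -0.022 to 0.35 for TINF2. The CST list had 1 gene past the threshold in place of 3 at a threshold of 0.01, with no filter, with median-of-ratios scaling and with the replicate block, and 1 to 2 with 1 library left out. The maintenance list had 7 in place of 13 at a threshold of 0.01 and 8 to 13 with 1 library left out. Counts over all genes ran from 5527 to 8033. Scaling moved the median of all genes by less than 0.1 and the share of higher calls from 41.2% to at most 49.5%. No pairing by replicate number was seen: deviations of same-numbered libraries correlated at 0.017, -0.027 and -0.012. These values do not tell whether same-numbered libraries were prepared together. With the replicate block, 7012 genes passed in place of 7657, and no call on the 10 genes changed.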

Other observations

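The genes in these paragraphs were named after their values were seen. RUVBL1 and RUVBL2, ATPases of the assembly complex that acts on dyskerin, fell with the MEN1 shRNA to 71.4 and 374.6 TPM from 124.9 and 581.7 TPM (limma log2 changes -0.80 and -0.63). Of the chaperonin subunits listed, TCP1 (-0.52) and CCT5 (-0.59) fell, and CCT2 did not pass the threshold (-0.09, adjusted p 0.195). All 3 subunits of the MRN complex, which senses broken ends and visits telomeres, fell: MRE11 (-0.88), NBN (-0.84) and RAD50 (-0.28). They were picked from the maintenance list, in which 8 of 31 tested genes fell, beside 31.5% of all genes tested.

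In the MAX network, MYC was lower while MXD3 (1.30) and MXI1 (0.55), which compete with MYC for MAX, rose, and MXD1 fell (-0.70). The E-box binders USF1 (0.34) and USF2 (0.71) rose, and MAX itself did not pass the threshold (0.18, adjusted p 0.0556). KLF2 rose to 10.9 TPM from 0.396 TPM (3.01), and WT1 fell to 7.01 TPM from 20.2 TPM (-1.44).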
